A study of Mus musculus with 6 samples.

Results

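The 5 genes described here are the haemoglobin chain genes Hbb-bs, Hbb-bt, Hba-a1 and Hba-a2 and the haem enzyme gene Alas2, taken by symbol from the 18204 genes of a Drop-seq table of mouse hypothalamus. Drop-seq captures single cells in droplets with barcoded beads and counts the 3' ends of their transcripts by unique molecular identifiers (UMIs). There were 3 wild-type libraries (WT1, WT2 and WT3) and 3 libraries from knockouts of IDOL (KO1, KO2 and KO3), a ubiquitin ligase of lipoprotein receptors encoded by Mylip. All mice were C57BL/6J and 8 weeks old, with no treatment named. Groups were mixed over the days of preparation, but the day of a library, and whether each came from its own animal, were not given. The tests accordingly take the library as the unit, and their p-values may reflect only technical spread. The 5 genes had been chosen for their uneven spread over the cells of these libraries, so that spread is described without a test.

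Haemoglobin is the oxygen carrier of red blood cells, a tetramer of alpha chains and beta chains that each hold a haem group. Adult mice of this strain make beta chains from the neighbouring genes Hbb-bs and Hbb-bt, and alpha chains from Hba-a1 and Hba-a2. Alas2 encodes the erythroid aminolevulinate synthase, the first and rate-limiting enzyme of haem synthesis in red cell precursors. Mature mammalian red cells have no nucleus and little RNA besides that of haemoglobin. In brain tissue they lie inside vessels.

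The members lie on 3 chromosomes of GRCm38 (GENCODE M21). Hbb-bs is at chr7:103826534-103828096 and Hbb-bt at chr7:103812524-103813996, both on the minus strand. Hba-a1 is at chr11:32283511-32284465, Hba-a2 at chr11:32296489-32297298 and Alas2 at chrX:150547375-150570638, all on the plus strand. The 250 bases before each RefSeq start site (GRCm38.p6) are shown because the 4 chain genes were counted together in each of the haemoglobin-rich barcodes below. Capitals mark 4 short motifs on either strand. These are the promoter box CCAAT, the box bound by the erythroid Krüppel-like factor, CACCC, the core of sites for GATA factors, written GATAA, and the start site box TATAA. The Hba-a2 window has the same bases as that of Hba-a1, shifted by a few positions, with 0 mismatches over 247 aligned bases, and is not repeated.

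Hbb-bs (chr7:103827929-103828178, minus strand): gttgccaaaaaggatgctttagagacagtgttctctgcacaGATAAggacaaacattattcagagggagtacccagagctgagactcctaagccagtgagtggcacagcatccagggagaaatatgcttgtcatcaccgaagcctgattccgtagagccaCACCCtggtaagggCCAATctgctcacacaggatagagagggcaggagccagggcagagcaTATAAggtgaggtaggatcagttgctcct
Hbb-bt (chr7:103813924-103814173, minus strand): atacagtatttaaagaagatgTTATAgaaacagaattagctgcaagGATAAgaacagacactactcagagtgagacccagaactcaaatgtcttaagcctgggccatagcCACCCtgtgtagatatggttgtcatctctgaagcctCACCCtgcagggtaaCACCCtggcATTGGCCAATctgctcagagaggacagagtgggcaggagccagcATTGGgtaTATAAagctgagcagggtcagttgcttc
Hba-a1 (chr11:32283422-32283671, plus strand): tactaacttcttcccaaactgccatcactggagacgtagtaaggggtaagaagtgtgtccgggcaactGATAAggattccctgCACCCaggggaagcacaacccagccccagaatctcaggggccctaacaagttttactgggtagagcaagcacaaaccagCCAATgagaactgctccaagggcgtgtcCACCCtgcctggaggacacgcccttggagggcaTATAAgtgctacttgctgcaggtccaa
Alas2 (chrX:150547167-150547416, plus strand): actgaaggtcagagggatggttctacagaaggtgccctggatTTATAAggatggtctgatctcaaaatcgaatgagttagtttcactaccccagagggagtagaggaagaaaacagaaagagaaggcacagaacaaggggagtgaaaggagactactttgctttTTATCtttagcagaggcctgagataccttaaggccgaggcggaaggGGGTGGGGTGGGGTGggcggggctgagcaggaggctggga

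All 4 chain promoters held each of the 4 motifs. TATAA began between 27 and 30 bases before the start in the chain genes, and CCAAT on the printed strand between 75 and 91 bases before it. Hbb-bt had 3 copies of CACCC and 3 of CCAAT (counting both strands), of which an inverted and a direct copy of the latter lie side by side. Alas2 had 3 CACCC on the opposite strand between 30 and 40 bases before its start, a GATAA on the opposite strand, no CCAAT, and a TATAA only 207 bases upstream, where it overlaps its own reverse complement. Such letters are common. Of all 32851 RefSeq promoter windows of this length, 33.8% held CCAAT, 52.0% CACCC, 22.6% GATAA and 22.8% TATAA. A match is a description of the sequence, not a bound site.

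The transcripts also set how well the members can be told apart. Hba-a1 and Hba-a2 differed at 1 of 538 aligned bases and at none of the 84 bases that aligned in their last 100 bases, where Drop-seq reads fall. Their separate counts are therefore uncertain, and the sum of both is used for statements on alpha chains. Hbb-bs and Hbb-bt matched at 92.7% of aligned bases over the whole transcript but at 70.1% over the last 100.

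The table held 13994 barcodes, 1410 to 2929 per library, with 1670993 to 4068886 UMIs per library. After filters on genes, mitochondrial UMIs and doublets, 9333 cells were kept, 1036 to 1946 per library, with a median of 804 to 1017 UMIs. Mylip was at 18.7 to 23.4 CPM (counts per 1000000 UMIs) in the WT libraries, at 0.654 in KO1 (2 UMIs) and at 0 UMIs in KO2 and KO3. Only 3 barcode sequences occurred in more than 1 library, and none of these was haemoglobin-rich.

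Over all barcodes there were 13804 haemoglobin UMIs. Hbb-bs gave 9685 of them in 726 barcodes, Hba-a1 1690 in 160, Hba-a2 1241 in 136 and Hbb-bt 1188 in 146. Alas2 gave 60 UMIs in 30 barcodes. By library, the haemoglobin UMIs were 2397 in WT1, 1694 in WT2, 1786 in WT3, 780 in KO1, 2260 in KO2 and 4887 in KO3. KO3 was the highest and KO1 the lowest, so the WT libraries all lay between KO libraries. In CPM the order was KO3 (1600 CPM), WT2 (1014), WT3 (852), KO2 (703), WT1 (589) and KO1 (255).

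Most barcodes had none of it. No haemoglobin UMI was counted in 93.3% of barcodes, 90.6% (KO3) to 95.7% (WT3) per library. At the other end, 74 barcodes (0.529%) gave at least 1% of their UMIs to haemoglobin, and together they held 92.5% of all haemoglobin UMIs. Barcodes with at least 10% are called haemoglobin-rich here, those with 1 to 10% intermediate and those below 1% low. These classes were cut from the share itself and are ranges, not cell types. Only 5 barcodes lay between 1 and 2% and 14 between 0.5 and 1%, so the lower limit falls where barcodes are few. The upper limit does not: 26 barcodes lay between 5 and 10% and 13 between 10 and 20%. The 3 barcodes just above the upper limit had 10.3%, 10.5% and 11.2% haemoglobin, and the 3 just below it 9.98%, 9.91% and 9.89%. Within a library, 11 of the 74 barcodes lay within 1 mismatch of another of the 74. Of the 74, 9 shared their first 11 bases with another of the 74 in their library. Of the rich ones, 2 shared them with another rich one. Of all 13994 barcodes, 1162 shared them with any other barcode of their library. That search covers far more barcodes, so its count is no background rate for the 74. Whether such barcodes came from the same cell was not tested, and each is counted separately.

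There were 32 haemoglobin-rich barcodes, with 66.6% of the haemoglobin UMIs. WT1 had 7, WT2 6, WT3 3, KO1 1, KO2 5 and KO3 10. The 42 intermediate barcodes held 25.9%, and were 3 in WT1, 4 in WT2, 5 in WT3, 13 in KO1, 6 in KO2 and 11 in KO3. The 13920 low barcodes held the last 7.48%. KO1 differed from the other libraries in that its 1 rich barcode gave 20.0% of its haemoglobin UMIs and its intermediate barcodes 66.5%, where rich barcodes gave 39.5% in WT3 and 66.8 to 86.7% in the remaining 4 libraries.

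**Figure D1:**
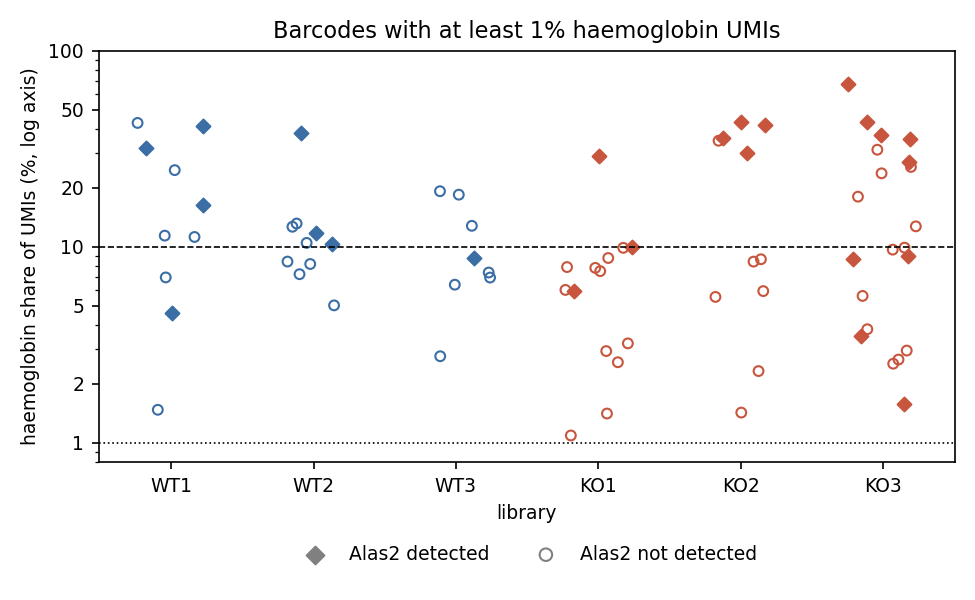
Haemoglobin share of UMIs (log axis) for the 74 barcodes with at least 1%, by library, with filled diamonds where Alas2 was detected; the dashed and dotted lines mark 10% and 1%. KO1 has 1 barcode above 10% and KO3 has 10, and the highest share is 67.4% in KO3.

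**Figure D2:**
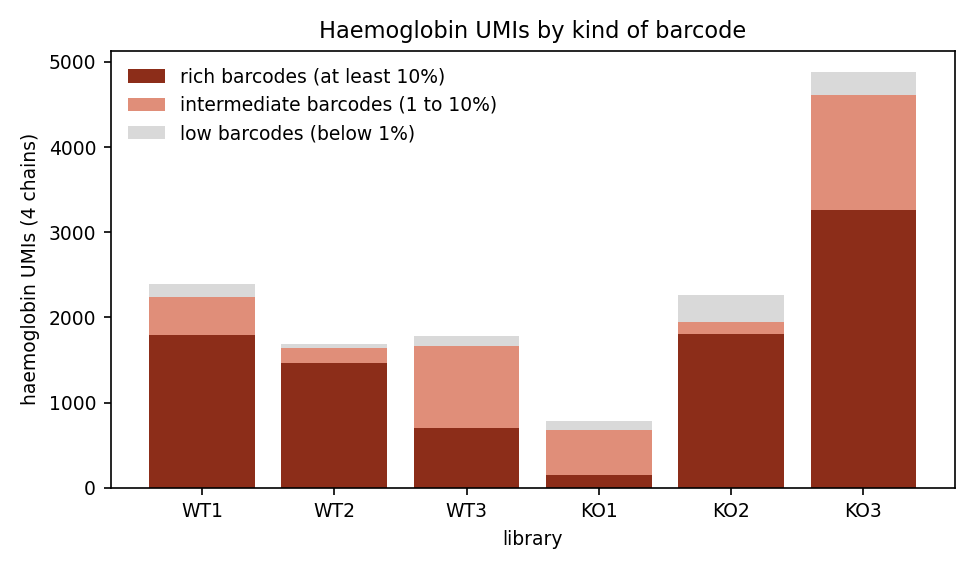
Haemoglobin UMIs of the 4 chains in each library, stacked by rich, intermediate and low barcodes. Rich and intermediate barcodes hold most of each bar, and KO1 is the library with the fewest UMIs in rich barcodes (156).

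The rich barcodes were small but not empty of other RNA. They had 289 to 5287 UMIs (median 942) and 207 to 2406 genes (median 416). Haemoglobin made up 10.3 to 67.4% of their UMIs (median 26.4%), so in all but 1 of them most UMIs were of other genes. All 32 had UMIs of all 4 chains. Hbb-bs ranged from 26 to 442 UMIs (median 186), Hbb-bt from 1 to 109 (median 19), Hba-a1 from 1 to 89 (median 26.5) and Hba-a2 from 2 to 70 (median 21.5). Alas2 was found in 16 of the 32, with 37 UMIs in all and at most 8 in a barcode. The barcode with the highest haemoglobin share, in KO3, had 648 haemoglobin UMIs among 962, those 8 Alas2 UMIs and only 226 genes.

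Pooled over libraries, the rich barcodes carried endothelial marker transcripts at about the level of endothelial-like cells. All 10 endothelial markers were detected, and they summed to 21753 CPM of the non-member UMIs. By library their sum ran from 8535 CPM (KO2) to 39474 CPM (KO1, with 1 barcode). The same sum was 22789 CPM in endothelial-like cells below 1% haemoglobin and 323 CPM in the other kept cells. Ly6c1 (182 UMIs), the VEGF receptor Flt1 (106), Itm2a (104) and the organic anion transporter Slco1a4 (92) led these markers. Neuronal and microglial markers summed to 6286 and 4132 CPM in rich barcodes, with a UMI in 15 and 6 of the 32. Endothelial-like cells below 1% haemoglobin had 1127 and 151 CPM of them, and the other kept cells 13744 and 1107. Of the 32 barcodes, 24 had an endothelial marker UMI. The 8 without any had a median haemoglobin share of 36.6% against 24.2% in the 24, and 3 of them had at least 10 neuronal marker UMIs. With endothelial markers at this level the barcodes are called by their rule and given no cell type name.

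Non-member genes were ranked by their level in rich barcodes relative to the other kept cells. Only the 398 genes with at least 10 UMIs in rich barcodes, from at least 4 libraries, were ranked. The 10 highest were Ushbp1, Erg, Nostrin, Atp10a, Itga1, Sema7a, Slco1a4, Tek, Fas and Acvrl1, at 10.3 to 16.8 times their level in the other cells. Erg is an endothelial transcription factor and Tek the receptor of angiopoietins. Ushbp1 was at 293 CPM in rich barcodes and 236 CPM in endothelial-like cells below 1% haemoglobin. Slco1a4 was at 2450 and 2567 CPM. In this paragraph the values of rich barcodes are of all UMIs, and those of these endothelial-like cells are of the non-member UMIs. Of the non-member UMIs, Slco1a4 was at 3249 CPM in rich barcodes, above the endothelial-like cells. Over the 10 genes the range was 293 to 2450 CPM in rich barcodes and 216 to 2567 CPM in those endothelial-like cells. These values describe barcodes that were chosen by their haemoglobin, so no test is attached. Their haemoglobin UMIs are part of the total, which lowers the CPM and ratios of other genes in rich barcodes.

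Genes of the red cell itself gave few UMIs at this depth, 37553 UMIs over the 32 barcodes, where a count of 0 allows up to 79.9 CPM. Of 13 measured membrane and skeleton genes, 11 had no UMI in rich barcodes, among them the glycophorin gene Gypc, the spectrin gene Sptb and the ankyrin gene Ank1. The transferrin receptor Tfrc had 14 UMIs and Cd24a 7, and Tfrc is also a gene of brain endothelium. Of 7 measured erythroid transcription factors, Lmo2 alone reached 10 UMIs (10, at 8.99 times its level in low barcodes), and it too is expressed in endothelium. Klf1, which drives adult beta globin, had 1 UMI, too few for a ratio, against a level of 0.405 CPM in low barcodes. The 14 haem synthesis genes, Alas2 apart, had 22 UMIs in all. Of these, 8 were of Alas1, the form of the enzyme used outside red cells (3.60 times its level in low barcodes), and 4 of Slc25a37, the mitochondrial iron importer of red cell precursors (9.74 times). Tspo2, another erythroid gene of the list, had 1 UMI.

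Of 24 measured genes whose transcripts are known from reticulocytes, 7 reached 10 UMIs, and 5 of the 7 were above their level in low barcodes. That count stands beside 312 of all 456 non-member genes with 10 UMIs in rich barcodes, whose median ratio was 1.57, so a ratio above 1 was usual. The list had 247 UMIs in rich barcodes, 72 of them of the ferritin heavy chain gene Fth1. Bpgm, the bisphosphoglycerate mutase that tunes oxygen release, had 21 UMIs in 13 rich barcodes, 6.77 times the level in low barcodes. In intermediate barcodes Bpgm was at 82.0 CPM and in low ones at 82.6 CPM, against 559 CPM in rich ones. Mkrn1 had 11 UMIs (3.76 times), the glutathione peroxidase Gpx1 34 (3.23 times) and Rsad2 14 (27.6 times). Rsad2 was at 373 CPM in rich barcodes and 13.9 CPM in the other kept cells. It is not among the 10 genes ranked above, whose rule also asked for UMIs from at least 4 libraries. Ubb and Fth1 were lower, at 0.658 and 0.444 times. Genes of other blood cells were close to 0, with 1 UMI for the 3 measured neutrophil genes, 3 for the 7 platelet genes and 1 for the 10 lymphocyte genes.

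The beta chain make-up varied with the haemoglobin share. Hbb-bt made up 13.0% (95% exact binomial interval 12.2 to 13.8%) of the beta chain UMIs of rich barcodes, 5.44% (4.62 to 6.36%) of those of intermediate barcodes and 10.9% (8.90 to 13.2%) of those of low barcodes. These intervals cover counting error only. By library, the Hbb-bt share of rich against intermediate barcodes was 11.4 and 6.41% in WT1, 13.1 and 4.58% in WT2, 4.92 and 6.45% in WT3, 20.6 and 2.85% in KO1, 13.5 and 2.02% in KO2, and 14.8 and 5.92% in KO3. It was higher in rich barcodes in every library except WT3. The alpha chains did not follow this pattern, with 20.8%, 23.3% and 17.5% of haemoglobin UMIs in rich, intermediate and low barcodes.

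Single barcodes spread widely around these means. Hbb-bt ranged from 1.04 to 22.1% of beta UMIs among rich barcodes, and 21 of the 42 intermediate barcodes had none. Among the 60 barcodes with at least 30 haemoglobin UMIs, the Hbb-bt share rose with the haemoglobin share (Pearson's r = 0.60 across barcodes, which share libraries and are not independent), and the alpha share did not (r = -0.07). In 13 of the 60, from all 6 libraries, Hbb-bt was below 2% of beta UMIs, and 3 of these had Alas2. In 25 it was at least 10%, and 16 of those had Alas2. Rich barcodes with Alas2 had a median haemoglobin share of 35.8% and a median Hbb-bt share of 13.8%. Those without had 18.2% and 8.53%, at the same median depth (942 and 946 UMIs). The difference is given without a test because the barcodes were chosen by their haemoglobin.

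**Figure D3:**
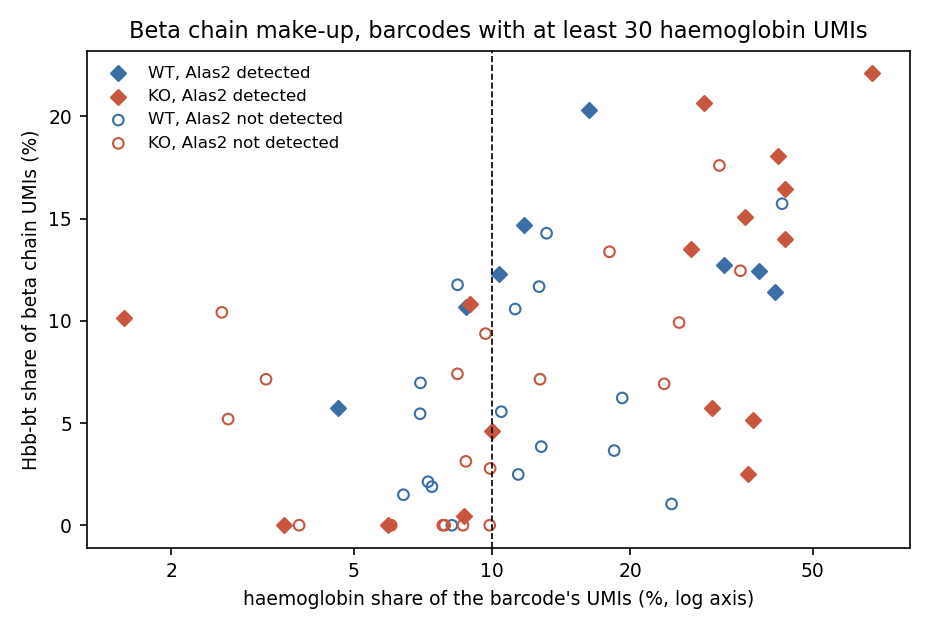
Hbb-bt share of the beta chain UMIs against the haemoglobin share of all UMIs (log axis) for the 60 barcodes with at least 30 haemoglobin UMIs; colour gives the group and filled diamonds mark Alas2. The 13 barcodes with under 2% Hbb-bt have a median haemoglobin share of 7.81%, and the highest Hbb-bt share is 22.1%.

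Cells were assigned to classes by clustering without the 5 genes, so each class name stands for cells like that type. Of the 74 barcodes above 1%, 51 were among the kept cells. Of the rich ones 7 had fewer than 300 genes and 6 were called doublets, which is 24.0% of the 25 that passed the other filters against 1.23% of all passing cells. Of the 51, 31 were endothelial-like, 8 mural-like, 7 neuron-like and 2 microglia-like, with 1 each in astrocytes, oligodendrocytes and perivascular macrophages. Endothelial-like cells were 8.95% of kept cells and 60.8% of these 51. All 8 mural-like ones were in 1 cluster of 171 cells, which passed the marker threshold for 9 mural and 10 endothelial markers. Each of the 8 had 7 or more endothelial marker UMIs (up to 102). Of the 31 endothelial-like ones, 7 were in a cluster of 103 cells that passed it for 10 endothelial and 10 mural markers. The other 24 were in a cluster of 732 cells, with 10 endothelial and 3 mural markers.

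In each library, the share of endothelial-like cells above 1% haemoglobin was 0.877% in WT1, 4.88% in WT2, 3.33% in WT3, 4.35% in KO1, 1.47% in KO2 and 5.60% in KO3. Over all libraries it was 31 of 835 cells (3.71%, 95% exact binomial interval 2.54 to 5.23%), with 15 of the 31 in KO3. This interval, the one for neurons and the limits for classes with none pool cells of all libraries and cover counting error only, not the spread between libraries. Every library had such cells and the groups overlapped. In mural-like cells the share was 2.13% (8 of 376), with 9.62% in KO1 and 0 in KO2 and KO3. In neurons it was 7 of 3038 (0.230%, exact interval 0.0927 to 0.474%). None was found among 590 oligodendrocyte precursors (OPC) or 423 tanycytes, the lining cells of the third ventricle, which allows shares of up to 0.508% and 0.709%. Over the 7 groups with none, the unnamed clusters counted as 1 of them, there were 1671 cells, which allows up to 0.180%.

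**Figure D4:**
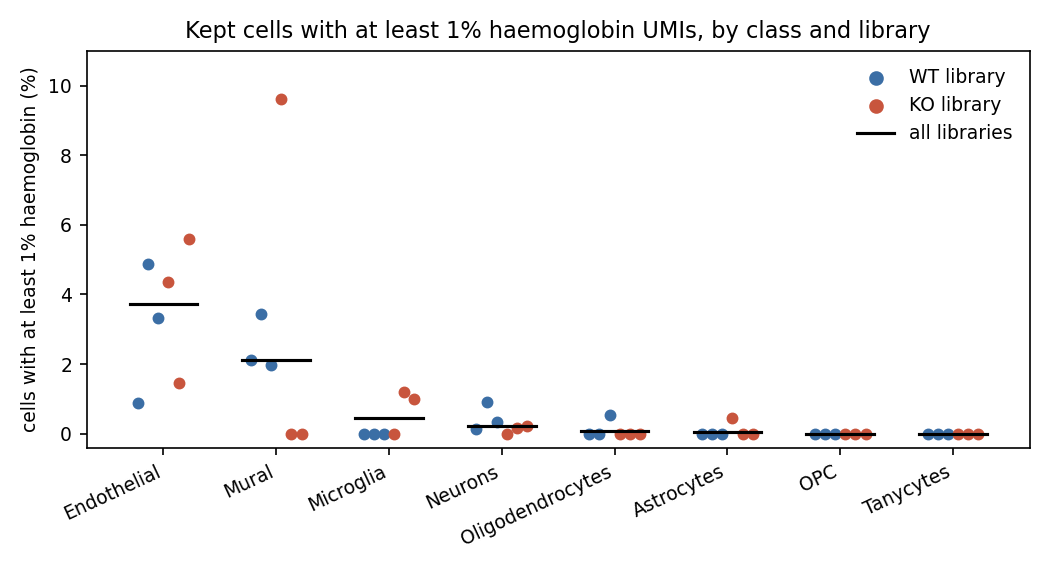
Percentage of kept cells with at least 1% haemoglobin UMIs in the 8 largest classes, 1 point per library, with the black line for all libraries together. Endothelial-like cells are above 0 in all 6 libraries, and the highest point is the mural-like class of KO1 at 9.62%.

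When the 5 genes were left in the clustering, 43 of the 51 cells formed a cluster of their own, which had no other cell. Its leading genes were Hbb-bs, Hba-a1, Hba-a2, Hbb-bt and Alas2, followed by the endothelial genes Slco1a4, Car4, Itm2a, Abcb1a and Flt1. Without the members, 29 of the 43 were in the endothelial-like class and 7 in the mural-like one.

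Over 14 populations (the named classes and the rich barcodes), the 4 other members were among the 5 genes with a pattern most like that of Hbb-bs out of 13248, at r = 0.96 for Hba-a2, 0.96 for Hbb-bt, 0.95 for Alas2 and 0.91 for Hba-a1. The closest non-members were Car5a (r = 0.91), C1qtnf9 (0.90), Sema3g (0.90), Ushbp1 (0.89) and Slc35f2 (0.89). These r are across populations that share libraries, and the rich barcodes were chosen by the summed share of all 4 chains, so the likeness of the chains is a description only.

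Below 1% haemoglobin, the share of cells with a haemoglobin UMI was small and similar in the larger classes, though their CPM differed (given below). Of 9282 such kept cells, 604 (6.51%) had a haemoglobin UMI: 557 had 1, 34 had 2, 7 had 3 or 4 and 6 had at least 5. The highest was an endothelial-like cell of WT3 with 53 among 6141 UMIs. The share of cells with a UMI was 6.40% in neurons, 6.64% in astrocytes, 5.61% in oligodendrocytes, 5.93% in OPC, 5.91% in tanycytes, 7.64% in microglia, 7.46% in endothelial-like and 8.70% in mural-like cells. Neurons had the deepest cells of these (median 1423 UMIs) and microglia the shallowest (608). The chains had about the same make-up as in rich barcodes, with 72.1% Hbb-bs, 9.21% Hbb-bt, 10.5% Hba-a1 and 8.16% Hba-a2 of these 760 UMIs, against 68.9%, 10.3%, 11.6% and 9.24%.

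Haemoglobin UMIs per cell were compared, as a description, for each class with at least 20 cells in each library. Such a class was set against all other kept cells under the same cut, smaller classes and unnamed clusters included. In cells below 1% haemoglobin, endothelial-like cells had 16.4 UMIs per 100 cells on average over libraries and the others 6.80, higher in 5 of 6 libraries. The values per 100 endothelial-like cells were 6.19 in WT1, 10.3 in WT2, 51.7 in WT3, 7.27 in KO1, 9.70 in KO2 and 13.4 in KO3. WT3 was the highest of these, and it held the cell with 53 UMIs.

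The CPM and thinned values of these cells were measures added after the data had been seen. In CPM, cells below 1% haemoglobin had 83.1 in astrocytes, 130 in endothelial-like, 116 in microglia and 110 in mural-like cells. Each was higher than the other kept cells in 6 of 6 libraries. Neurons had 33.7 CPM and tanycytes 20.6, each lower in 6 of 6. The 4 classes with the higher CPM had a median of 608.5 to 690.5 UMIs per cell, and tanycytes and neurons 1158 and 1423. Cells were then thinned in a single random draw to 500 UMIs, which left 7841 of the 9282 cells below 1%. The share with a haemoglobin UMI was 5.12% in endothelial-like cells against 2.87% in the others, 5.30% in microglia against 2.93% and 1.96% in neurons against 3.55%, each in the same direction in 6 of 6 libraries. Tanycytes did not keep the direction of their CPM, with a mean log2 ratio of 0.25 and a higher share in 4 of 6 libraries. Astrocytes were higher in 5 of 6 and mural-like cells in 4 of 6.

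With intermediate cells included, that is below 10%, endothelial-like cells had more haemoglobin UMIs per cell than the rest in every library. They had 205 ± 172 UMIs per 100 cells (SD, n = 6 libraries) and the others 27.0 ± 23.9, a mean log2 ratio of 2.82. WT1, WT2 and WT3 were at 154, 41.8 and 235, and the KO libraries at 210, 69.1 and 521. Mural-like cells ranged from 14.6 (KO3) to 585 (WT1) and were higher in 5 of 6. Astrocytes, microglia, OPC and tanycytes were lower in 6 of 6, at 5.02 to 9.13 per 100 cells on average. With the members in the clustering, which moves most cells above 1% out of their classes, the log2 ratio of endothelial-like cells was -0.17.

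**Figure D5:**
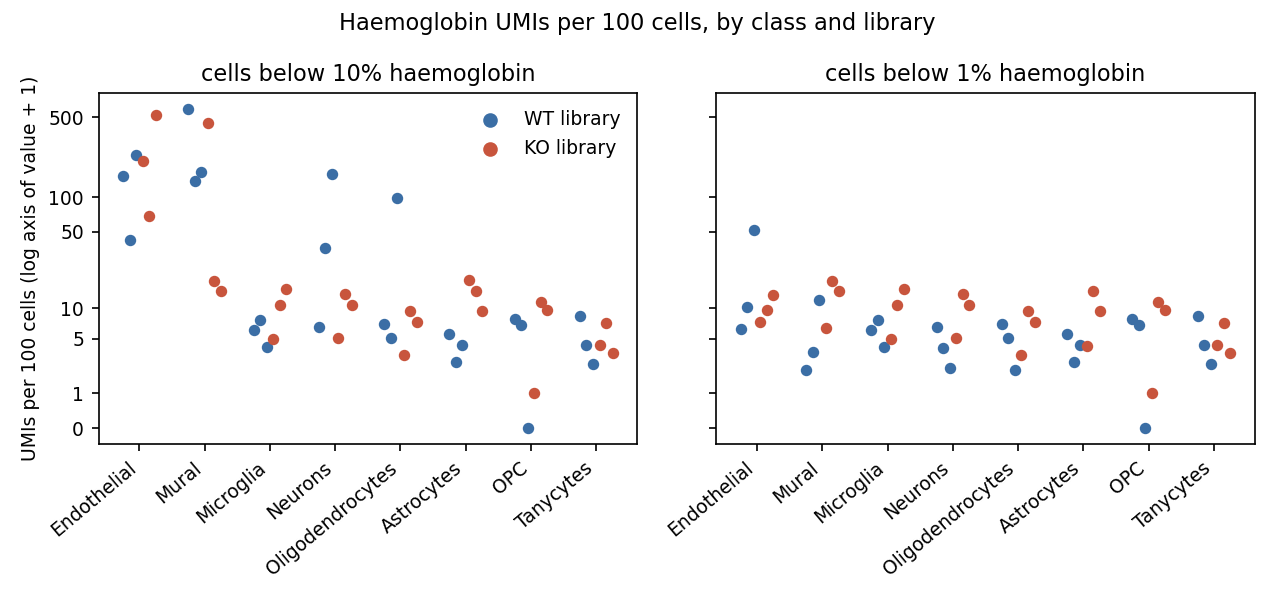
Haemoglobin UMIs per 100 cells (log axis of the value + 1) in 8 classes, 1 point per library, for cells below 10% haemoglobin (left) and below 1% (right). The endothelial-like and mural-like points reach 521 and 585 on the left, and on the right all points but WT3 endothelial-like cells (51.7) lie below 20.

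The knockout and wild-type libraries were then compared. Rich barcodes per 1000 barcodes numbered 2.55 (WT1), 4.26 (WT2), 1.75 (WT3), 0.429 (KO1), 1.71 (KO2) and 3.49 (KO3). The groups overlapped, at 2.85 ± 1.28 and 1.88 ± 1.54 (SD, n = 3 each, two-sided exact permutation p = 0.4, where 3 against 3 cannot go below 0.1). Kept cells below 10% had 30.1, 20.7 and 90.9 haemoglobin UMIs per 100 cells in WT and 38.3, 16.6 and 79.2 in KO (exact permutation p = 0.9). In cells below 1% the values were 6.48, 4.47 and 8.23 in WT and 4.60, 12.3 and 10.5 in KO, where KO2 and KO3 lay above all WT libraries and KO1 within them (exact permutation p = 0.3). The direction depended on the measure: with each cell below 10% thinned to 500 UMIs, 2.60%, 2.60% and 2.06% of WT cells and 2.65%, 4.64% and 5.62% of KO cells had a haemoglobin UMI, with no overlap (exact permutation p = 0.1, the smallest possible). The thinning was a single random draw, and KO1 was so close to WT1 and WT2 that another draw could make the groups overlap. In cells below 1% the thinned shares overlapped, at 2.48%, 2.38% and 1.66% in WT and 2.04%, 4.58% and 5.08% in KO (exact permutation p = 0.3). Without thinning, 6.05%, 4.28% and 3.33% of WT cells and 4.19%, 8.97% and 9.38% of KO cells below 1% had a haemoglobin UMI.

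The amount in rich barcodes was compared with the amount in other cells over the libraries. Haemoglobin UMIs in rich barcodes per 1000 barcodes were 654, 1041 and 411 in WT and 66.9, 618 and 1140 in KO. Against the UMIs per 100 other cells, Pearson's r was 0.02 (exact permutation p = 0.964) and Spearman's rho -0.14 (exact permutation p = 0.803) over the 6 libraries, the only relation computed. Without KO1 and KO3, the libraries farthest from the median, r over the remaining 4 was -0.69, given without a test.

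Gene by gene, UMIs of kept cells below 10% were summed per library and tested with edgeR over 13053 genes, of which 0% passed in either direction (0 genes, with 266 at an unadjusted p below 0.05; DESeq2 called 4). Hbb-bs had 402, 162 and 707 UMIs in WT and 444, 223 and 1125 in KO. Its log2 fold change was 0.18 ± 0.63 (SE), with 203 ± 163 CPM in WT and 230 ± 177 in KO (edgeR adjusted p = 1.00). The log2 fold changes of Hbb-bt, Hba-a1 and Hba-a2 were 0.13 ± 0.62, -0.24 ± 0.78 and -0.17 ± 0.72 (SE, edgeR adjusted p = 1.00 each). Alas2, with 3, 0 and 4 UMIs in WT and 4, 0 and 10 in KO, was too low to pass the filter on low counts. So 4 of the 5 members were tested and none passed. Among cells below 1%, Hbb-bs had 22.9, 24.7 and 31.8 CPM in WT and 21.7, 59.1 and 58.6 in KO, a log2 fold change of 0.82 ± 0.36 that did not pass either (edgeR adjusted p = 1.00).

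The genes that work with the members did not pass in this fit. Of the 14 haem synthesis genes 13 were tested, and of 11 genes of haem breakdown 7, of 19 membrane and skeleton genes 8, of 8 erythroid factors 4 and of 29 late red-cell transcripts 22. None was called by edgeR in either direction. The median log2 fold change was -0.07 for haem synthesis, 0.10 for breakdown, 0.05 for membrane and skeleton, 0.25 for the erythroid factors and 0.00 for the late transcripts, against 0.01 over all genes.

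In the 8 classes, 7 pairs of member and class passed the filter on low counts, namely Hbb-bs in astrocytes, neurons, endothelial-like and mural-like cells, Hba-a1 in endothelial-like and mural-like cells and Hba-a2 in endothelial-like cells. Only Hbb-bs in astrocytes was called. WT libraries had 13, 4 and 7 UMIs of it and KO libraries 30, 37 and 28, or 44.6, 43.0 and 41.3 CPM against 209, 163 and 104, with no overlap. Hbb-bs met the filter there only through the KO libraries, where it was higher, so its call is given as a description. The log2 fold change was 1.81 ± 0.36 (edgeR adjusted p = 0.0194, ranging from 0.000845 to 0.524 over the alternatives), and 0.0477% of the 4194 genes tested in astrocytes were called (2, both higher in KO).

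In KO1, 25 of the 30 Hbb-bs UMIs came from a single intermediate cell with 31 haemoglobin UMIs among 514. Without it, in cells below 1%, KO1 had 5 UMIs and lay below the WT libraries in CPM (30.7 against 35.0 to 39.2), while KO2 and KO3 stayed above (144 and 91.3). The gene then missed the filter, and without a filter the log2 fold change was 1.31 ± 0.39 (edgeR adjusted p = 0.524). The call was also lost, with log2 fold changes of about the same size, without WT1 (1.85, edgeR adjusted p = 0.226), without WT3 (1.79, adjusted p = 0.121), without KO1 (1.60, adjusted p = 0.0875), without KO2 (1.76, adjusted p = 0.215) and in DESeq2 (1.86, adjusted p = 0.245).

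In neurons a few cells turned the direction. Hbb-bs had 38 (WT1), 86 (WT2), 315 (WT3), 21 (KO1), 58 (KO2) and 37 (KO3) UMIs in neurons. The log2 fold change was -2.47 ± 0.63 and did not pass (edgeR adjusted p = 0.63), in a fit where 0.0306% of genes were called. Without WT1 it was -3.09 and called (edgeR adjusted p = 0.000545), and without WT3 it was -0.80 (edgeR adjusted p = 1.00). Of the 315 UMIs in WT3, 310 came from 1 neuron-like cell with 480 haemoglobin and 80 neuronal marker UMIs, and of the 86 in WT2, 76 came from a pair of cells (30 and 46). In cells below 1% the counts were 38, 10 and 5 in WT, the KO counts did not change, and the log2 fold change was 1.20 ± 0.35 (edgeR adjusted p = 0.935). Without the filter on low counts both directions were called, lower in KO in cells below 10% (edgeR adjusted p = 4.03e-26) and higher in KO in cells below 1% (edgeR adjusted p = 0.0261).

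In vessel-wall classes no member was called, in fits where 0% of genes passed for endothelial-like and 0.11% for mural-like cells. Hbb-bs had 136, 21 and 190 UMIs in endothelial-like cells of WT and 193, 65 and 997 in KO, with overlapping CPM and 1.14 ± 0.48 as log2 fold change (edgeR adjusted p = 1.00). Without KO3 the change was 0.46 (edgeR adjusted p = 0.978), and without the filter on low counts it was 1.17 and called (edgeR adjusted p = 0.0251). Below 1% the log2 fold change was -0.65 ± 0.44 (edgeR adjusted p = 1.00). In mural-like cells Hbb-bs had 187, 36 and 56 UMIs in WT and 182, 11 and 13 in KO (log2 fold change -0.51 ± 0.76, edgeR adjusted p = 0.952). Without KO1 the change was -3.92 and was called (edgeR adjusted p = 3.57e-17). Of the 8 mural-like cells above 1%, 5 were in KO1 and 1 in each WT library. The WT1, WT2 and WT3 cells held 187, 35 and 52 of the Hbb-bs UMIs. In mural-like cells below 1% the counts were 0, 1 and 4 in WT and 2, 11 and 13 in KO. The WT counts behind the call without KO1 thus came almost wholly from 1 cell per library.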

How the data were processed

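The authors deposited 1 table of UMI counts per gene and barcode; its values are whole numbers, not normalized. Per the submitters' processing notes, bcl2fastq, STAR 2.5.0c and the builds mm10 and GRCm38 were used; the counting program, strand and cell-calling rule were not given in the sources used here, and reads of near-identical genes may have been dropped or split. The 5 genes and all lists were chosen with earlier results of these data known.

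Barcodes with at least 300 genes and at most 20% mitochondrial UMIs passed (9449). Scrublet in scanpy 1.11.5 (expected rate 5%, run per library) called 116 doublets, which were removed. Clusters used 2000 variable genes without the 5 members, 30 components (scikit-learn 1.9.0), 15 neighbours and Leiden resolution 1 (igraph 0.11.9, leidenalg 0.10.2). A cluster could take a class name where 3 or more of that class's markers reached 4 times their median across clusters. Of several such classes, the one with the most markers among the cluster's 10 leading genes was taken, and a cluster stayed unnamed where yet another class had more there. The naming rule was chosen with the clusters in view; 85 cells stayed unnamed. Summed counts were tested with edgeR 4.0.16 (R 4.3.3, filterByExpr, TMM, quasi-likelihood, Benjamini-Hochberg over all genes of a fit at 0.05) and DESeq2 1.42.0. On data simulated for cells below 10% (13053 genes) edgeR called 89 of 100 genes changed 4-fold and 42 of 100 changed 2-fold. The simulation took the spread usual for a gene's level, not that of the members. It therefore does not tell how often a change in the members would be found. CPM in those tests are TMM-scaled. Elsewhere they are of all UMIs, except where non-member UMIs are named. Ratios of classes added 0.5 UMIs to both sums.

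Named non-members were the 10 genes highest in rich barcodes relative to other kept cells (at least 10 UMIs from at least 4 libraries), the 5 most like Hbb-bs over populations (at least 50 UMIs), and list genes with at least 10 UMIs in rich barcodes; other list genes named were chosen after their values were seen. One gene that met this rule is not reported here. Symbols matched GENCODE M21 for 93.9% of genes, and all 5 members had a RefSeq promoter. Other alternatives were cuts of 5 and 20%, cells below 1%, other gene minimums, doublets kept, other clusters, other scaling, no filter, and each library left out.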

Additional observations from a re-analysis of the deposited data

How the results depend on the processing

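Of 352 values under alternatives, for 20 results, 62 changed direction, the class ratios below, which are descriptions, included; the cause was not tested beyond the cells named in the report. Cells below 1% as CPM, thinned, with under 5 UMIs or with no gene filter were alternatives chosen after seeing the data. Rich barcodes per 1000 (KO minus WT) changed sign with a 20% limit (0.921) and ran from -1.78 to -0.25 with each library left out. Haemoglobin UMIs per 100 other cells (KO minus WT) changed sign as CPM (14.0), thinned (1.88), with a 5% limit (12.1), below 1% (2.75, or 23.7 as CPM and 1.73 thinned) and below 1% with under 5 UMIs (3.21), and ran from -19.8 to 19.3 with each library left out. The correlation over libraries was -0.38 with a 20% limit; it was not recomputed with each library left out in turn.

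The class ratios (log2) changed sign as follows. Astrocytes were at 0.39 thinned, 0.77 below 1% as CPM and 0.57 below 1% thinned. Microglia were at 0.90 thinned, and below 1% at 0.18, 1.39 as CPM, 1.09 thinned and 0.47 with under 5 UMIs. OPC were at 0.18 thinned, 0.15 below 1% as CPM and 0.36 below 1% thinned. Tanycytes were at 0.065 thinned and 0.25 below 1% thinned. Endothelial-like and mural-like cells were at -0.17 and -1.97 in clusters built with the members. The endothelial-like ratio was 3.91 with a 20% limit, 1.62 below 1% as CPM and 2.39 with every deposited barcode.

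In the edgeR fits over all other cells, a 20% limit turned Hbb-bs to -0.98 and Hbb-bt to -1.37. A 5% limit turned Hba-a1 to 1.49 and Hba-a2 to 1.01, and cells below 1% turned them to 0.11 and 0.18 (0.11 and 0.17 with no gene filter). With each library left out, Hbb-bs ran from -0.61 to 1.08, Hbb-bt from -0.62 to 0.97, Hba-a1 from -1.40 to 0.91 and Hba-a2 from -1.02 to 1.05.

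In classes, Hbb-bs of astrocytes lost its call with every deposited barcode (1.22), in DESeq2 (1.86) and below 1% with no gene filter (1.31), and ran from 1.60 to 2.07 with each library left out. In endothelial-like cells it ran from 0.46 to 1.56 with each library left out and turned to -1.25 (20% limit), -0.65 (below 1%), -0.45 (clusters built with the members), -0.70 (rich barcodes kept) and -0.63 (below 1%, no gene filter). In mural-like cells it turned to 0.56 (every deposited barcode) and 1.67 (below 1%, no gene filter), and ran from -3.92 to 0.44 with each library left out. In neurons it ran from -3.09 (called) to -0.80 with each library left out and turned to 1.20 with a 5% limit, 1.20 below 1%, 1.20 in clusters built with the members, 0.27 with rich barcodes kept and 1.22 below 1% with no gene filter. The count of member calls over classes was 1 of 7 pairs tested in the main fits. It was 0 with a 5% limit and below 1% (2 pairs tested each), with every deposited barcode (9), with at least 500 genes (4) and in DESeq2 (7). With no gene filter it was 7 of 36 pairs, in fits that called from 2 of 13379 genes (OPC) to 28 of 17155 (neurons). With each library left out it ran from 0 of 9 pairs (without WT3) to 4 of 10 (without WT1). The fits without WT1 called from 0 of 2845 genes (endothelial-like) to 3 of 910 (microglia).

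The same replicate numbers in both groups did not pair the libraries, with correlations of deviations of 0.244, -0.140 and 0.230. With the number as a replicate block, Hbb-bs in astrocytes was 1.87 (edgeR adjusted p = 0.0512). Of the 7 pairs tested over classes, 2 were called in place of 1. These were Hbb-bs in neurons (-2.01, edgeR adjusted p = 0.00522) and in mural-like cells (-1.56, edgeR adjusted p = 0.0268). Those fits called 7 of 9804 genes in neurons and 2 of 912 in mural-like cells.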
